A study of Arabidopsis thaliana with 6 samples.

Results

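QQS and 6 other genes whose transcript level differed between the mutant cls8 and the wild type are described here across 3 Arabidopsis lines at 20 °C and 4 °C. They are QQS, AT2G15560, AT5G26270, AT5G03090, AT5G15360, AT2G16000 and AT1G18270. They were picked by name from the transcripts that stood apart in cls8, and for each the probe set was taken whose annotation gave that gene alone. Each of the 7 had exactly 1 such probe set, out of 13350 genes with a probe set of this kind, and each passed the filter on low values, which used the mean over the 6 arrays. AT2G15560 and AT5G03090 passed it only through cls8, where they were high: with the filter set on the 4 wild-type and sfr6 arrays, the 5 other genes passed and these 2 did not. The difference between cls8 and the wild type therefore chose these genes and is given below as a description with no test.

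The data are 6 Affymetrix ATH1 arrays of whole seedlings in the Col-0 ecotype, 7 days old, raised on MS medium at 20 °C, with 4 days of stratification at 4 °C beforehand. Plates then spent 3 h in a lit chamber at 20 °C or 4 °C. The groups were the Col-0 wild type, sfr6 and cls8, each at both temperatures, with 1 array per group from a pool of 40 to 60 plants. No group had a replicate, and precision is limited by there being only 6 arrays.

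Both mutants are labelled as EMS mutants, that is, lines from chemical mutagenesis, and each was represented by 1 line. As background, cls8 is impaired in ribonucleotide reductase, the enzyme that makes deoxyribonucleotides, through a mutation in its large subunit, and its leaves are crinkled and have a chloroplast division defect. sfr6 is sensitive to freezing and lacks a subunit of the Mediator complex, which links transcription factors to RNA polymerase. Any further mutation in either line was not tested. Both cls8 arrays are marked as repeats in their titles, and an effect of the repeat cannot be told apart from one of the mutation. The gene for the large subunit of ribonucleotide reductase had no probe set annotated to it alone, so the mutated gene itself was not analysed here.

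QQS (locus AT3G30720) is the member for which a function is given here. It is an orphan gene, found in Arabidopsis thaliana without recognisable relatives in other species, and it encodes a very short protein. QQS is known for its effect on leaf composition: lowering it raises starch, and raising it shifts the balance from starch towards protein. Its protein binds NF-YC4, a subunit of a transcription factor complex, and its transcription is known to depend on DNA methylation and to vary among natural accessions and laboratory lines. The annotation used here gives no function for the 6 other genes. It lists AT2G16000 as a pseudogene and the others as protein coding. QQS lies on chromosome 3, AT1G18270 on chromosome 1, AT2G15560 and AT2G16000 on chromosome 2, and AT5G03090, AT5G15360 and AT5G26270 on chromosome 5.

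The arrays were alike in overall level, with a median intensity between 41.7 and 45.2. This was largely set beforehand, since the deposited values have the same trimmed mean of 100 on every array. Per the labels, outlier cells numbered 1101 for sfr6 and 922 for cls8 at 20 °C, against 406 to 517 on the other 4 arrays. The leaf gene RCA, which encodes Rubisco activase, read 2524 to 4093 over the 6 arrays and the root gene PYK10, a beta-glucosidase of root endoplasmic reticulum bodies, 2585 to 3418, as whole seedlings should hold both. Of 25 listed markers of leaf, root, guard and myrosin cells, dividing cells and seed, 8 genes were measured, none of them a seed gene. None of these 8 passed limma for cls8 minus the wild type. Only 0.117% of all probe sets tested did, so nothing is read from that count. The log2 differences of the 8 lay between -0.19 for EXPA7 and 0.10 for LHCB4.1.

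QQS (probe set 256940_at) was high in cls8 and low in the other lines at both temperatures. Its intensity at 20 °C was 291 in cls8, against 53.9 in sfr6 and 49.5 in the wild type. The 4 °C arrays gave 161.4 in cls8, against 29.9 in sfr6 and 19.3 in the wild type. Both cls8 arrays thus lay above the 4 others, and within every line the 4 °C array was the lower one. The ratio of cls8 to the wild type was 5.88 at 20 °C and 8.36 at 4 °C. Against sfr6 the ratio was 5.40 at either temperature. Over both temperatures the fitted difference between cls8 and the wild type was 2.33 ± 0.14 (SE) on the scale of log2 of the intensity plus 14.1, on which all log2 values here are given. The pseudocount of 14.1 makes such differences smaller than the raw ratios for dim genes. In whole seedlings, fewer cells of a type and less RNA per cell cannot be told apart.

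In order of level, QQS was highest in cls8 at 20 °C, followed by cls8 at 4 °C, sfr6 at 20 °C, the wild type at 20 °C, sfr6 at 4 °C and the wild type at 4 °C. The spread expected between 2 arrays, from the residual of the model, was 0.19 (SD of a difference, log2 scale). The step between sfr6 and the wild type at 20 °C was 0.10 and lay within that spread. The 4 other steps were larger than it, from 0.40 between sfr6 and the wild type at 4 °C to 1.37 between cls8 at 4 °C and sfr6 at 20 °C.

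AT2G15560 (265486_at) had the largest difference among the 7 genes. It read 362.7 in cls8 at 20 °C, against 20 in sfr6 and 29.9 in the wild type. Its level at 4 °C was 270.5 in cls8, 6 in sfr6 and 17.9 for the wild type. The gene was dim outside cls8, where the sfr6 array at 4 °C lay below the pseudocount of 14.1. The ratio of cls8 to the wild type was 12.1 at 20 °C and 15.1 at 4 °C, and the fitted log2 difference was 3.13 ± 0.15 (SE). The ratios to sfr6 were 18.1 and 45.1, the latter against a value of 6 that lies below the pseudocount.

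AT5G26270 (246888_at) was well above the pseudocount in all 3 lines. It read 1196 in cls8 at 20 °C, against 303.8 in sfr6 and 295.3 in the wild type. The 4 °C arrays of cls8, sfr6 and the wild type gave 1316, 276.8 and 263. The wild type and sfr6 arrays lay close together, between 263 and 303.8, and both cls8 arrays lay far above them. The ratio of cls8 to the wild type was 4.05 at 20 °C and 5.00 at 4 °C, with a fitted log2 difference of 2.12 ± 0.13 (SE).

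**Figure D1:**
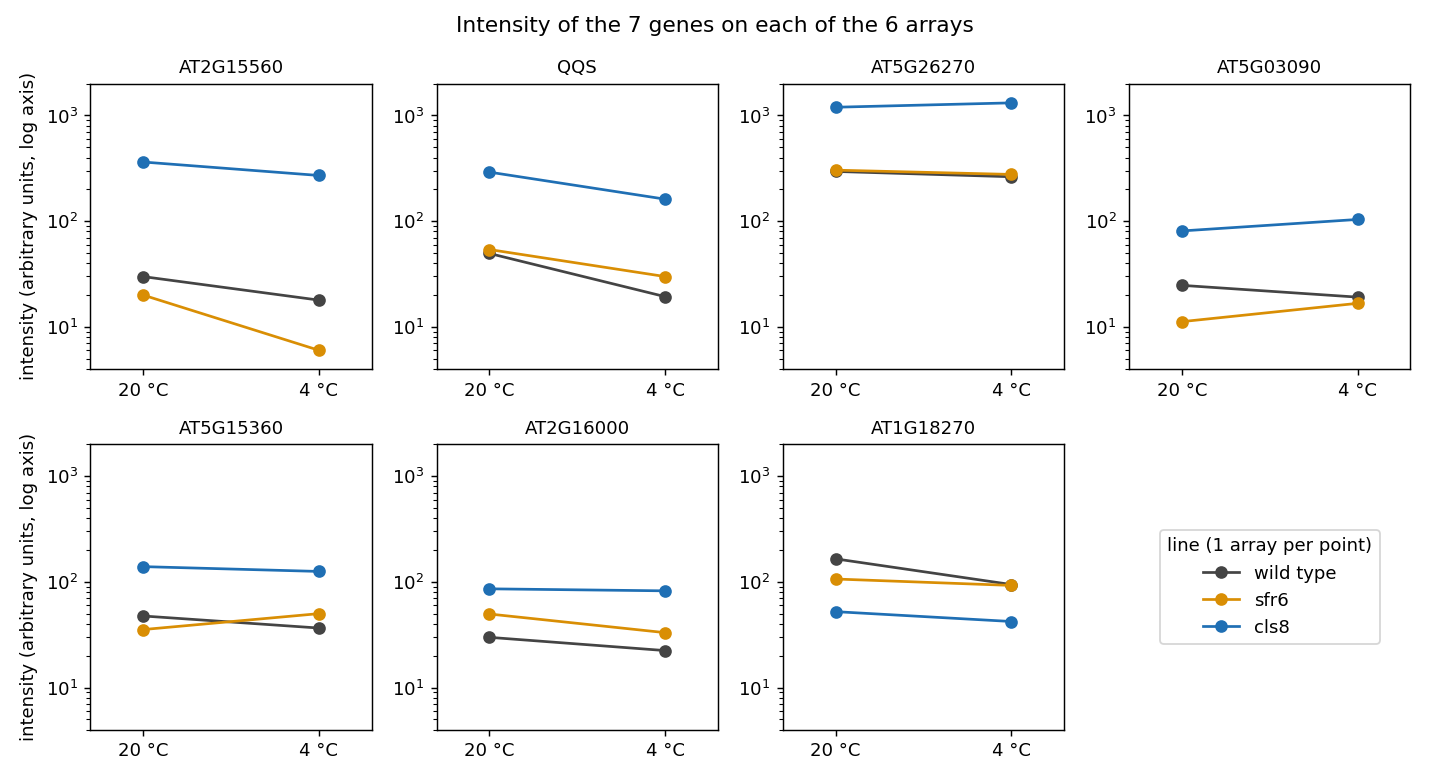
Intensity (arbitrary units, log axis) of each of the 7 genes at 20 °C and 4 °C, with 1 array per point and lines joining the arrays of the wild type, sfr6 and cls8. The cls8 points lie above the others for 6 genes, as for AT5G26270 at 1196 and 1316 against 263 to 303.8, and below them for AT1G18270.

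The 3 other genes that were higher in cls8 had smaller differences. AT5G03090 (250979_at) read 80.8 in cls8 at 20 °C, against 11.2 in sfr6 and 24.7 in the wild type. The 4 °C arrays of cls8, sfr6 and the wild type gave 103.8, 16.7 and 19.1. It was below the pseudocount on 1 array, that of sfr6 at 20 °C. AT5G15360 (250135_at) read 139.5 in cls8 at 20 °C, against 35.4 in sfr6 and 47.6 in the wild type, and at 4 °C 125.6 against 50.1 and 36.6. The pseudogene AT2G16000 (263089_at) read 86 in cls8 at 20 °C, against 49.7 in sfr6 and 29.9 in the wild type. The 4 °C arrays of cls8, sfr6 and the wild type gave 82.3, 33.1 and 22.4. For all 3 genes both cls8 arrays lay above the 4 others, and for AT2G16000 the sfr6 arrays lay between the wild type and cls8. Their fitted log2 differences between cls8 and the wild type were 1.56 ± 0.18, 1.39 ± 0.17 and 1.29 ± 0.15 (SE).

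AT1G18270 (261674_at) was the member that was lower in cls8. It read 52.3 in cls8 at 20 °C, against 106.5 in sfr6 and 165.2 in the wild type. The 4 °C arrays of cls8, sfr6 and the wild type gave 42.2, 92.6 and 94.4. The ratio of cls8 to the wild type was 0.317 at 20 °C and 0.447 at 4 °C, so that the gap was wider at 20 °C, where the wild type was brighter. At 4 °C the wild type and sfr6 read nearly alike, with a ratio of 0.981. The fitted log2 difference between cls8 and the wild type was -1.19 ± 0.16 (SE).

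Both cls8 arrays lay above the 4 others for 6 members and below them for 1, which follows from how they were chosen. Among all 13648 probe sets tested, 4.54% lay above in this way and 6.17% below. By limma with a Benjamini-Hochberg adjusted p under 0.05, 16 probe sets (0.117%) differed between cls8 and the wild type, with 9 higher (0.0659%) and 7 lower (0.0513%), and the 7 members are among these 16. Their place there follows from how they were chosen, and nothing is read from it. The count was 29 without the cls8 array at 4 °C and 4 when dim probe sets were not filtered out. Of the 16, 11 had exactly 1 annotated gene, 6 higher and 5 lower. All 6 higher ones are members, while the lower ones also held LCR68 and 3 plastid-encoded transcripts. The genes nearest to the threshold on the inside were AT5G15360, with a log2 difference of 1.39, and AT1G18270, with -1.19. Just outside lay AT4G16870 with -0.94 and the plastid-encoded rps14 with -1.07.

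The sfr6 arrays read nearer to the wild type than to cls8 for each of the 7 genes on the log2 scale, at both temperatures. This was largely set by the choice of genes for a large difference of cls8, and nothing is read from it. Of all 13648 probe sets tested, 13548 differed by less than 2-fold between sfr6 and the wild type over both temperatures. The differences between sfr6 and the wild type share the wild-type arrays with the differences that chose the members, so they are given as values with no test. Over both temperatures the log2 difference was 0.25 for QQS, 0.05 for AT5G26270 and 0.01 for AT5G15360. It was -0.52 for AT2G15560, -0.36 for AT5G03090, -0.30 for AT1G18270 and 0.45 for AT2G16000. None of the 7 differed by at least 2-fold on this scale at each of both temperatures, as 0.425% of all probe sets tested did. With no pseudocount the difference for AT2G15560 was -1.08. For AT5G15360 the value near 0 came from opposite signs, -0.32 at 20 °C and 0.34 at 4 °C.

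In AT2G16000, QQS and AT1G18270 the sfr6 arrays leaned to the side of cls8. QQS had a ratio of sfr6 to the wild type of 1.09 at 20 °C, within the spread between 2 arrays, and 1.55 at 4 °C. AT5G26270 lay barely to that side, with ratios of 1.03 and 1.05. AT2G16000 had a ratio of sfr6 to the wild type of 1.66 at 20 °C and 1.48 at 4 °C. AT1G18270 leaned at 20 °C, with a ratio of 0.645, and read nearly alike in sfr6 and the wild type at 4 °C, at 0.981. The sfr6 arrays lay on the far side of the wild type from cls8 for AT2G15560, with ratios of 0.669 and 0.335, and for AT5G03090, with ratios of 0.453 and 0.874.

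**Figure D2:**
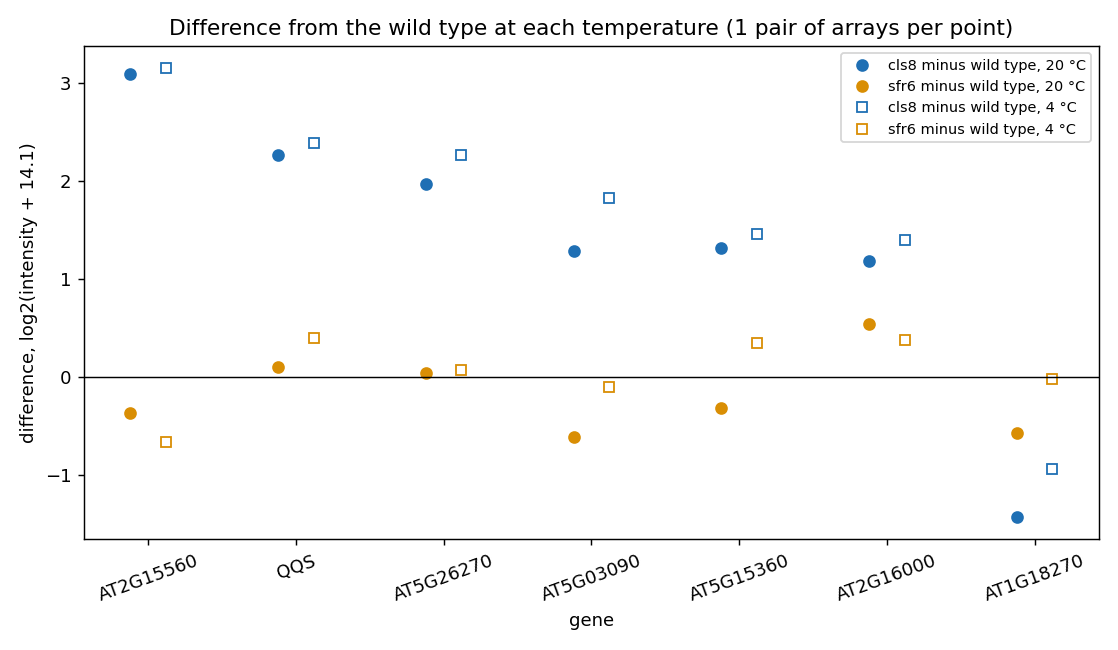
Difference from the wild type on the log2(intensity + 14.1) scale for each gene, for cls8 (blue) and sfr6 (orange) at 20 °C (filled circles) and 4 °C (open squares), with 1 pair of arrays per point. The cls8 values run from 3.15 for AT2G15560 at 4 °C to -1.43 for AT1G18270 at 20 °C, and the sfr6 values from 0.54 to -0.67.

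The response to cold is the comparison that the choice of members left free, because the temperature term of the balanced model does not depend on the line terms, although it shares their residual spread. QQS fell at 4 °C, in 3 of 3 lines. It had a log2 difference between 4 °C and 20 °C of -0.79 ± 0.11 (SE) and an adjusted p in limma of 0.00187. Without both cls8 arrays the difference was -0.78 with an adjusted p in limma of 0.00409. Of all probe sets tested, 18.8% passed for temperature in either direction, with 9.25% lower and 9.58% higher at 4 °C. The number of probe sets passing for temperature was 2570, and 1537 and 1585 without the sfr6 array at 20 °C and at 4 °C.

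AT2G15560 had a log2 difference of -0.54 ± 0.12 (SE) and an adjusted p in limma of 0.015, but it was tested only because cls8 carried it over the filter. The adjusted p was 0.0666 when dim probe sets were not filtered out, 0.0905 without the sfr6 array at 20 °C and 0.0844 without that at 4 °C. QQS passed in each of these fits. With no block for line, where the large difference of cls8 enters the spread, neither gene passed.

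Within each line, QQS at 4 °C was 0.390 of its 20 °C intensity in the wild type and 0.555 of it in both sfr6 and cls8. On the log2 scale these folds were -0.80 in cls8, -0.63 in sfr6 and -0.93 in the wild type, each from 1 pair of arrays. At 161.4, QQS in cls8 at 4 °C was still above the 49.5 of the wild type at 20 °C. AT2G15560 had log2 folds of -0.40 in cls8, -0.76 in sfr6 and -0.46 in the wild type.

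The 5 other members did not pass for temperature, and of these AT5G03090 was tested only because cls8 carried it over the filter. QQS, AT2G15560, AT1G18270 and AT2G16000 were lower at 4 °C in every line, as were 30% of all probe sets tested. AT1G18270 had a log2 difference of -0.38 ± 0.13 (adjusted p in limma of 0.0749) and was lower at 4 °C in 3 of 3 lines, most in the wild type at -0.72, against -0.18 in sfr6 and -0.24 in cls8. AT2G16000 had a log2 difference of -0.25 ± 0.12 (adjusted p in limma of 0.191), with folds from -0.43 in sfr6 to -0.05 in cls8. AT5G26270, AT5G03090 and AT5G15360 had differences of -0.05, 0.12 and -0.01, and each moved in different directions in different lines. For AT5G26270 and AT5G15360 the sign of the fitted difference also turned with single arrays left out, and for AT5G15360 with quantile normalization and without both cls8 arrays.

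Against the wild type, the cold fold in cls8 was higher by 0.05 for AT2G15560, the least of the 7 genes, and by 0.54 for AT5G03090, the most. Over all probe sets tested the median of the same difference was -0.03, and 46.1% of them lay above 0. On these arrays the log2 gap to the wild type was therefore wider at 4 °C in the 6 genes that were raised in cls8, and narrower in AT1G18270. All 7 values come from the same 4 arrays, so nothing is read from their shared sign. The cold fold in sfr6, against the same wild-type arrays, was also higher for QQS (0.30), AT5G26270 (0.03) and AT5G03090 (0.51). So it was for AT5G15360 (0.66) and AT1G18270 (0.55), while it was lower for AT2G15560 (-0.30) and AT2G16000 (-0.17). For the 7 genes the SD of a difference between 2 arrays was 0.18 to 0.25. Each difference of 2 folds rests on 4 arrays with no replicate, so its spread is larger than that SD. The cls8 values of AT2G15560, QQS (0.13) and AT5G15360 (0.15) lay below even the SD between 2 arrays. None of these differences of folds was tested.

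**Figure D3:**
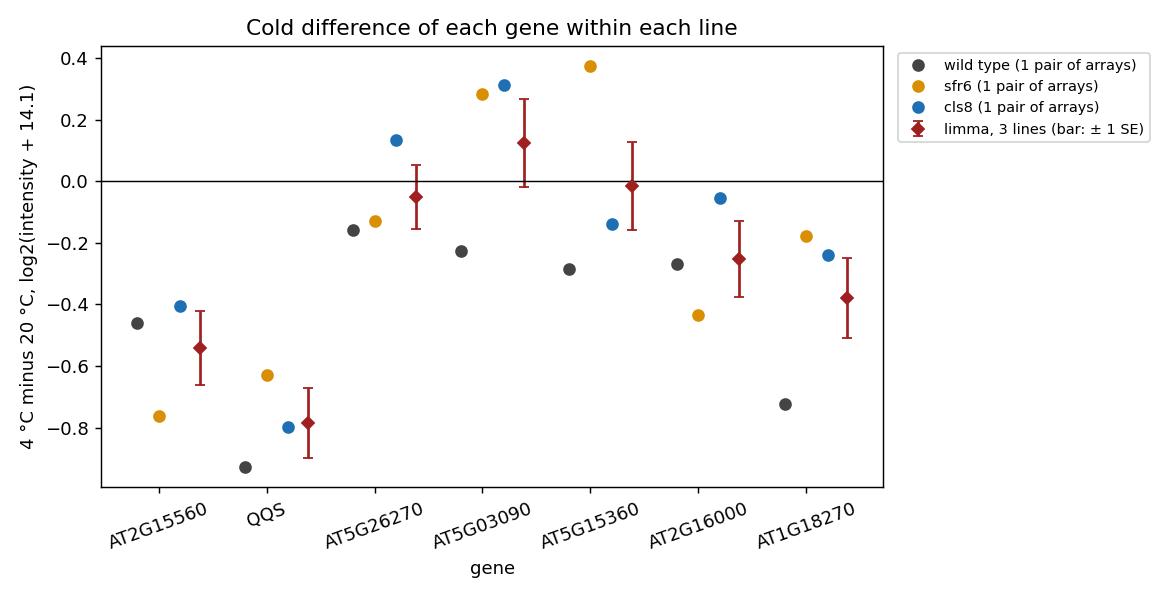
Difference between 4 °C and 20 °C on the log2(intensity + 14.1) scale for each gene, as the value of 1 pair of arrays in the wild type, sfr6 and cls8 (circles) and as the limma estimate over the 3 lines (diamonds, with bars of 1 SE). All circles of QQS lie between -0.93 and -0.63 and those of AT2G15560 between -0.76 and -0.40, while those of AT5G26270, AT5G03090 and AT5G15360 lie on both sides of 0.

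Genes beside the members in chromosome order were read to see whether their neighbourhood differed in cls8 as well. Up to 2 genes with a probe set of their own were taken on each side within 5 annotated genes, which gave 21 genes, of which 10 passed the filter on low values. None of these 10 passed limma for cls8 minus the wild type. Only 0.117% of all probe sets tested did, so nothing is read from that count. The log2 differences of the 10 lay between -0.92 and 0.31. The lowest was AT5G26280, 2 genes from AT5G26270, which read 627.1 in the wild type and 381.7 in cls8 at 20 °C, and 528 and 231.1 at 4 °C (adjusted p in limma of 0.171). Its difference had the opposite sign to that of AT5G26270.

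The gene next to AT2G16000, AT2G16005, read 149 in the wild type and 174 in cls8 at 20 °C, with a log2 difference of 0.21. AT2G15580, 2 genes from AT2G15560, had one of 0.31, against 3.13 for AT2G15560 itself. The single neighbour of QQS with a probe set of its own, AT3G30730, was too dim to test, at 1 to 4.8 on all 6 arrays. The 11 neighbours that did not pass the filter read at most 28.6 in cls8, in AT5G03130 at 20 °C.

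**Figure D4:**
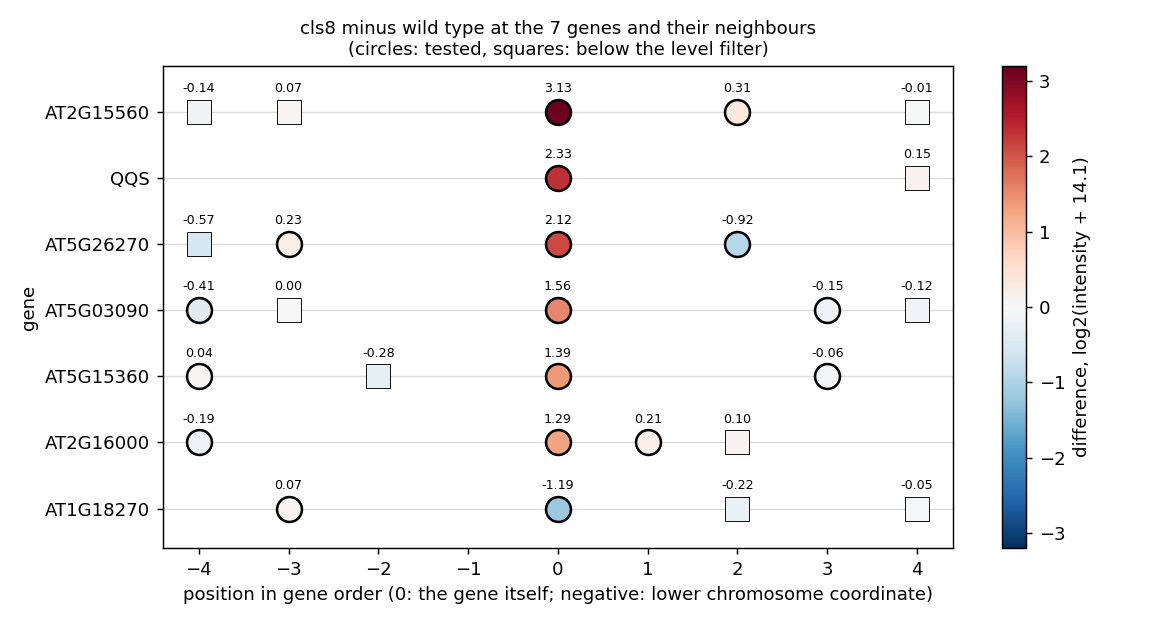
Difference between cls8 and the wild type over both temperatures, on the log2(intensity + 14.1) scale, for each of the 7 genes (position 0) and for its neighbours by position in gene order, with colour and printed value for the difference. Circles were tested and squares lay below the filter on low values. The values at position 0 run from 3.13 to -1.19, and those of the tested neighbours from 0.31 to -0.92.

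Genes of processes in which QQS and cls8 are known to act were read beside the members. Of 34 listed starch enzymes, 6 genes had a probe set of their own. APL3, at 14.7 to 28.6, and APL4, at 6.6 to 16, subunits of the enzyme that makes ADP-glucose for starch, lay below the filter. None of the 4 others passed limma for cls8 minus the wild type, as only 0.117% of all probe sets tested did. Nothing is read from that count. Their log2 differences ran from -0.07 to 0.16 with a median of 0.09, against -0.01 over all probe sets tested. PWD, which phosphorylates starch so that it can be degraded, read 228.2 in the wild type and 287.9 in cls8 at 20 °C, and 213.7 and 207.6 at 4 °C. SBE2.2, a starch branching enzyme, differed by 0.04 on the log2 scale. DPE1, the plastid enzyme that reworks maltotriose during starch breakdown at night, differed by 0.16.

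DPE1 was the tested starch gene that passed for temperature, as 18.8% of all probe sets tested did. It read 148.9 in cls8 at 20 °C, against 105.5 in sfr6 and 121.8 in the wild type. The 4 °C arrays of cls8, sfr6 and the wild type gave 57.3, 56.5 and 54.5. All 3 arrays at 4 °C lay below all 3 at 20 °C, with a log2 difference of -0.98 ± 0.12 (adjusted p in limma of 7.38e-04). Its level at 4 °C lay within a narrow range in the 3 lines. The 3 other tested starch genes did not pass for temperature, with log2 differences of -0.18 for PWD, -0.17 for SBE2.2 and -0.15 for AT5G39790. PWD and SBE2.2 also read lower at 4 °C in every line, as did 30% of all probe sets tested.

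Of 20 listed genes of DNA methylation, 1 was measured, DME, a glycosylase that removes methylated cytosine, with 3 probe sets. Their log2 differences between cls8 and the wild type were -0.03, -0.01 and -0.16, and none passed limma. The cold differences of the same 3 probe sets were -0.24, -0.61 and -0.35, and only the middle one passed (adjusted p in limma of 0.0122), so the probe sets of DME did not give the same call. Of 11 listed genes of chloroplast division, FTSZ2-1 and FTSZ2-2, which form the division ring inside the plastid, were measured. FTSZ2-1 differed between cls8 and the wild type by 0.20 and FTSZ2-2 by -5.6e-04 on the log2 scale, and neither passed limma. With 0.117% of all probe sets tested passing for cls8, nothing is read from the absence of such calls for DME, FTSZ2-1 and FTSZ2-2. None of 5 listed NF-YC genes and none of 19 listed genes for ribonucleotide reductase and the DNA damage response had a probe set of its own, so both lists were not analysed here.

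The profile of QQS over the 6 arrays was compared with those of the 7342 other tested probe sets with 1 gene. The highest Pearson correlations on the log2 scale were those of AT1G10890 (r = 0.993), AT1G02410 (0.977), AT4G38810 (0.973), AT1G06100 (0.965) and ISU1 (0.965). Their log2 differences between cls8 and the wild type were 0.25 to 0.32, against 2.33 for QQS. AT1G10890 read 37.9 in cls8 at 20 °C and 33.3 at 4 °C, against 29.4 and 27.2 for sfr6 and 28.9 and 26.4 for the wild type. ISU1, a scaffold protein for iron-sulphur clusters in mitochondria, read 527.4 and 452.7 in cls8, against 405.3 and 401.2 for sfr6 and 399.7 and 379.8 for the wild type.

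The most opposite profiles were those of NTRC (r = -0.997), AT2G35880 (-0.995) and AT5G19680 (-0.988). NTRC, a plastid thioredoxin reductase, read 381 and 402.5 in cls8, against 448.2 and 469.4 for sfr6 and 443.3 and 484.9 for the wild type. None of these 8 genes passed limma for cls8 or for temperature, as 0.117% and 18.8% of all probe sets tested did. The profiles most like that of AT1G18270 were those of AT2G01580 (r = 0.986), AT5G07590 (0.975) and AT4G16870 (0.972), the last of which lay just outside the threshold for cls8. These correlations describe 6 arrays that share line and temperature, and the genes were picked as the extremes of 7342 values.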

How the data were processed

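Each of 6 ATH1 arrays, labelled with biotin-marked cRNA, gave 22810 probe sets per the labels. The authors deposited linear intensity values, whose mean is 100 on every array once the lowest and highest 2% are set aside, as the values themselves show. Which algorithm made them is not stated in the labels. No detection calls were used.

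After 64 controls were set aside, log2 was taken of the deposited intensity plus 14.1 (the 25th percentile over all arrays), and the 13648 probe sets whose mean reached the 40th percentile were kept. A table of the platform gave exactly 1 gene for 13513 probe sets, several for 503 and none for 8730. RefSeq genes of the TAIR10.1 assembly matched 13436 of the 13513 and were used for names, gene types, chromosomes and gene order. No coordinates are printed, since the probe table names no build.

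limma 3.58.1 in R 4.3.3 was fitted with additive terms for line and temperature and an intensity trend (residual degrees of freedom 2, prior 6.82). Tests were two-sided, with p adjusted by the Benjamini-Hochberg method over all 13648 probe sets and a threshold of 0.05. The residual holds array noise and any cold response that differs between lines. The fit was tested on simulated data. Lines stand in for replicates, which the labels do not give. The p-values weigh each difference against the residual spread of these arrays, joined with that of other probe sets. Whether a difference would recur in further pools of the same line was not tested. The SD of 1 array in the model was 0.13 to 0.18 for the 7 genes, against a median of 0.142 over all probe sets tested.

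The 7 genes and the gene lists were chosen with earlier results of these data known. The rule for other named genes took list members that passed or, where none did, those with the largest differences, the profiles most like those of QQS and AT1G18270, chromosome neighbours, and the genes nearest to the threshold for cls8. Alternatives changed the pseudocount, the filter, the normalization, the blocks and the arrays in the fit, and the fit without both cls8 arrays was added after seeing the data.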

Additional observations from a re-analysis of the deposited data

Results flagged for a closer look

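In 3 genes the direction of the cold difference was opposite in a mutant and in the wild type, each from 1 pair of arrays per line. For AT5G26270 the log2 fold was -0.16 in the wild type and 0.14 in cls8, a difference of 0.29. For AT5G03090 it was -0.22 in the wild type, 0.31 in cls8 and 0.28 in sfr6, which makes differences of 0.54 and 0.51. For AT5G15360 it was -0.28 in the wild type and 0.38 in sfr6, a difference of 0.66. The SD of a difference between 2 arrays was 0.18 for AT5G26270 and 0.25 for AT5G03090 and AT5G15360. Both folds of AT5G26270 and the wild-type fold of AT5G03090 lay within that spread. The sfr6 array of AT5G03090 at 20 °C, at 11.2, also lay below the pseudocount. The differences between lines each join 2 such folds, so their spread is larger than that SD, and they were not tested. No group held enough arrays to look for an array far from the others of its group.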

How the results depend on the processing

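The number of probe sets passing for temperature (2570) was 1445 with no filter, 1589 with no block for line and 1533 without both sfr6 arrays, and lay between 1537 and 2327 with single arrays left out. QQS and AT2G15560 passed for temperature, a number of 2 that became 1 with no filter, 0 with no block for line (adjusted p in limma of 0.523 for QQS and 0.793 for AT2G15560, since the line differences then enter the residual), 1 without both sfr6 arrays, 1 without both cls8 arrays (an alternative chosen after seeing the data, in which QQS passed and AT2G15560 and AT5G03090 lay below the filter), and 1 to 2 with single arrays left out. AT2G15560 entered this count only because cls8 carried it over the filter, and 18.8% of all probe sets tested passed for temperature. QQS had a log2 difference for temperature between -1.02 and -0.56 over 13 alternatives. The temperature difference of AT5G26270, which did not pass, lay between -0.14 and 0.0039 with single arrays left out, above 0 without either wild-type array. That of AT5G15360 lay between -0.21 and 0.12, above 0 without a wild-type or a cls8 array, and was 0.0029 with quantile normalization and 0.046 without both cls8 arrays. The number of probe sets passing for cls8 (16) was 4 with no filter and 1 with no temperature term, and lay between 14 and 29 with single arrays left out. The difference between cls8 and the wild type that chose the 7 genes kept its sign in every alternative run, which largely follows from that choice. It lay between 1.78 and 2.81 for QQS and between 2.41 and 3.76 for AT2G15560, with the lower end at the median as pseudocount and the upper end with none. The range was 1.98 to 2.25 for AT5G26270, 1.05 to 2.08 for AT5G03090 and 1.04 to 1.67 for AT5G15360. For AT2G16000 it was 0.87 to 1.70 and for AT1G18270 -1.45 to -0.90. None of the list genes passed for cls8 in any alternative. AT5G03090 also fell below the filter in 2 other alternatives and has no value there. The temperature fit compares the 2 temperatures within each line. Beyond this block for line, no paired analysis was possible because the labels give no replicate numbers. Dim probe sets, such as AT2G15560 outside cls8, limit how far a ratio can be read.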
